A study of Triticum aestivum with 45 samples.

Results

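In wheat spikelets, 98 of the 110790 listed genes had a mean level after salicylic acid (SA) of at least 2 times that after water in all 3 genotypes studied. The members were chosen by their own SA and water values. CPM, a gene's count scaled by the total of its library, was computed, and the mean of the 3 libraries of a group was taken. A gene is a member where, in each genotype, its SA mean reached 0.5 CPM and was at least 2 times its water mean with 0.05 CPM added. With the SA and water columns exchanged, 4 genes passed the same rule, which is given as a noise level. The levels of the members after SA and water are therefore a description with no test. Tests are given for the libraries that the rule did not use, and for a genotype left out of the rule.

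SA is a phenolic hormone of plants that builds up after attack by pathogens, above all those that feed on living tissue. It is sensed by NPR proteins, which act with TGA transcription factors on defence genes such as those for pathogenesis-related proteins. Much of this is known from Arabidopsis, where SA and jasmonate signals can also act against each other. In rice, healthy tissue often holds a high basal level of SA. The SA level of these wheat spikelets is not known here.

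The organism is hexaploid bread wheat, Triticum aestivum, which carries the A, B and D subgenomes. Superb is a Canadian hard red spring cultivar. GS-1-EM0040, called DH1 below, is a doubled haploid line bred from CIMMYT11 with Superb as the repeated parent, and GS-1-EM0168, called DH2, is one bred from CM82036 in the same way. Flowering spikes (anthesis) received a spray to run-off of water, of SA, of methyl jasmonate (MeJA) or of ethephon, which releases ethylene in plant tissue. SA, MeJA and ethephon were given at 100 µM. Spikelets came from unsprayed spikes at 0 h and from sprayed ones at 8 h, with 5 plants per treatment group, and each of the 15 groups held 3 libraries. Untreated spikelets thus differ from all the others in spray and in time. Whether the libraries of a group stem from separate plants is not stated, so the p-values reflect the spread between libraries only, and that spread may be technical. The libraries were made from spikelets and not from sorted cells, so fewer cells of a type and less RNA per cell cannot be told apart. The files do not pair the gene identifiers with names, and no gene is given a role here. Tissue markers could not be looked up for the same reason, and the label "spikelet" was not checked.

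The 45 libraries held 6446374 to 17940396 counts, with a median of 11251553. Genes with a mean of at least 2 CPM in one line and under 0.05 CPM in another, found without the treatment at hand, were read in each library as a check of its label. Ethephon replicate 1 of Superb had counts in all 37 genes found for DH1, at 32.6% of their DH1 level. Ethephon replicate 1 of DH1 had counts in 39 of 89 DH2 genes, at 9% of the DH2 level. Untreated replicate 3 of DH2 had counts in 26 of 43 Superb genes, at 47% of the Superb level. Water replicate 1 of DH2 had counts in 17 of 29 Superb genes, at 7.66%, the highest share among the 18 SA and water libraries. These 4 libraries hold genes of another line, and counts of calls that use them are given with and without them. Without water replicate 1 of DH2 the rule gave 97 genes, 95 of them among the 98. Untreated replicate 2 of DH2 had counts in 48 of 83 DH1 genes and 19 of 43 Superb genes, against 7 and 4 in replicate 1, at 1.55% and 1.66% of their level, and was kept. Without it, 54 members were called between ethephon and untreated spikelets and 9 between DH2 and Superb. MeJA replicates 2 and 3 of DH2 reached 25.1% and 42.6% of the Superb level through only 4 and 6 of 25 genes, and were kept.

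In single genotypes the rule was passed by many more genes, 591 in Superb, 1192 in DH1 and 562 in DH2. The exchanged columns gave 274, 253 and 294 genes. Among genes with an SA mean at the minimum, the fold of the rule was reached by 0.986% of 59967 genes in Superb, 1.97% of 60489 in DH1 and 0.936% of 60057 in DH2. The ratio of SA to water plus 0.05 CPM had a median over the members of 2.74 in Superb, 4.15 in DH1 and 3.42 in DH2. It reached 12.8, 32.3 and 10.9 in the same order. DH1 had the highest ratio for 64 members, DH2 for 24 and Superb for 10. The highest SA mean was in DH2 for 46 members, in Superb for 36 and in DH1 for 16. A ratio of at least 3 in every genotype was reached by 36 members, one of at least 5 by 6 members and one of at least 10 by 0.

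**Figure D1:**
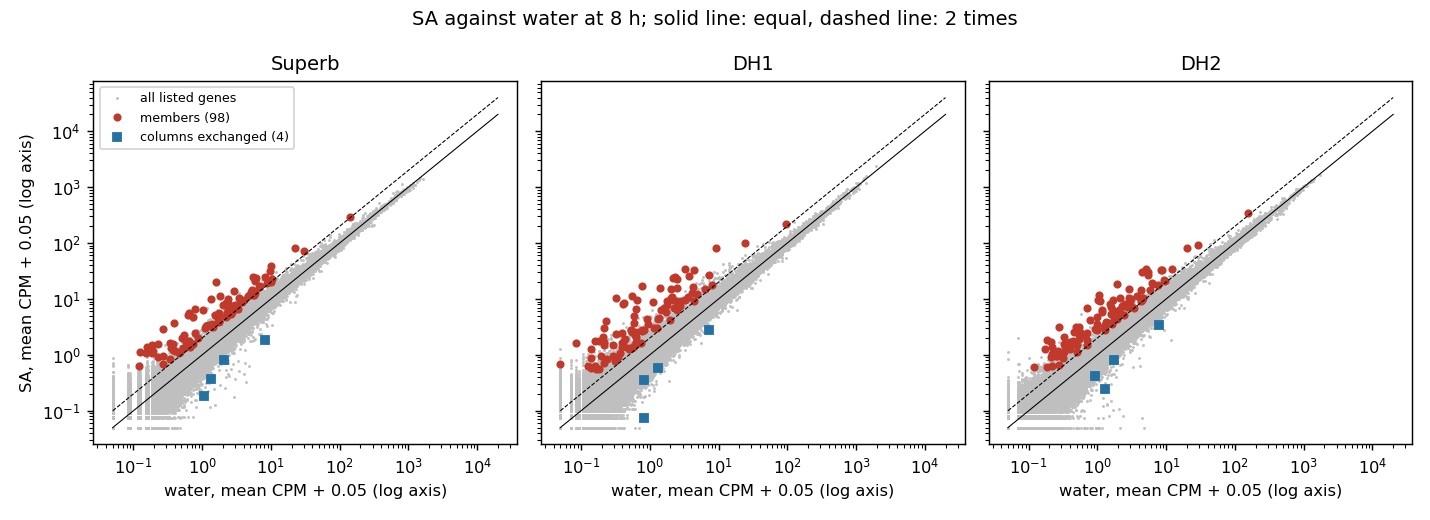
Mean CPM after SA (vertical, log axis) against mean CPM after water (horizontal, log axis), with 0.05 CPM added, for every listed gene in 3 panels by genotype. Red points are the 98 members, blue squares the 4 genes that pass with the columns exchanged, and the dashed line marks 2 times. Members lie from below 1 CPM to 338 CPM after SA.

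Most members were of low to middle abundance. The median member stood at 5.44 CPM after SA in Superb, 3.83 CPM in DH1 and 4.63 CPM in DH2. After water the medians were 1.68, 0.598 and 1.23 CPM. Before treatment they were 1.16, 0.464 and 0.665 CPM. The SA mean was at least 1 CPM in all genotypes for 82 members, at least 5 CPM for 39 and at least 10 CPM for 18. Together the members held 0.0992% to 0.156% of all counts in the SA libraries and 0.0239% to 0.0465% in the water libraries.

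TraesCS6D01G206100 on 6D was the most abundant member after SA. In Superb it stood at 309, 267 and 315 CPM after SA and at 144, 144 and 134 CPM after water. In DH1 the SA libraries held 241, 176 and 244 CPM and the water libraries 92.4, 59.0 and 136 CPM. In DH2 they held 342, 285 and 387 CPM against 137, 161 and 159.8 CPM. SA lay above water in every library of each genotype, but untreated spikelets already held 298, 276 and 102 CPM in Superb, 201, 189 and 154 CPM in DH1 and 300.1, 211 and 168 CPM in DH2. The untreated libraries overlapped with the SA libraries in each genotype. They lay above the water libraries in DH1 and DH2, but in Superb untreated replicate 3 lay below all 3 water libraries. It was at 29.9 CPM or less in all 9 MeJA libraries.

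TraesCS5D01G407400 on 5D, the next most abundant, differed from it before treatment. Untreated spikelets held 5.34, 7.17 and 3.07 CPM in Superb, 2.69, 4.18 and 5.46 CPM in DH1 and 7.04, 3.98 and 8.02 CPM in DH2. After water it was at 28.7, 26.3 and 35.3 CPM in Superb, 25.0, 28.3 and 18.9 CPM in DH1 and 24.8, 29.5 and 33.9 CPM in DH2. After SA it was at 77.2, 75.5 and 62.5 CPM, 88.9, 106 and 112 CPM, and 72.5, 98.4 and 109 CPM in the same order. The untreated, water and SA libraries formed 3 steps without overlap in each genotype, and the MeJA mean was higher still, at 312, 230.0 and 240.3 CPM, with overlap between MeJA and SA in DH2.

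TraesCS1B01G245700 on 1B had the highest value of the smallest ratio over the genotypes, 8.44. It stood at 6.94, 4.87 and 8.18 CPM after SA and 1.01, 0.523 and 0.687 CPM after water in Superb. In DH1 it was at 11.4, 4.498 and 15.1 CPM against 0.401, 0.198 and 0.210 CPM, and in DH2 at 5.96, 6.94 and 15.1 CPM against 0.719, 0.271 and 2.11 CPM. All 9 SA libraries were at 4.498 CPM or above, and the 36 others at 2.11 CPM or below.

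TraesCS5B01G224000 on 5B followed with a smallest ratio of 7.41. Its SA libraries held 9.34, 7.26 and 13.3 CPM in Superb, 10.4, 5.95 and 17.8 CPM in DH1 and 4.84, 9.26 and 20.4 CPM in DH2. Its water libraries held 2.02, 0.836 and 1.03 CPM, 0.602, 0.462 and 0.420 CPM, and 1.18, 0.812 and 1.06 CPM. All 9 SA libraries again lay above all 36 others, of which the highest was at 2.02 CPM.

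At the threshold, members and other genes were close together. TraesCS7A01G018700 and TraesCS5B01G305300 had the lowest smallest ratios of the members, 2.01 and 2.02. TraesCS1B01G361500 and TraesCS3D01G501600, with 1.99 and 1.98, were left out. Near the minimum level, TraesCS3A01G127300 and TraesCS5A01G355700 were kept with a lowest SA mean of 0.502 and 0.510 CPM, while TraesCS6D01G065100 and TraesCS2A01G002400 were left out with 0.487 and 0.484 CPM.

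**Figure D2:**
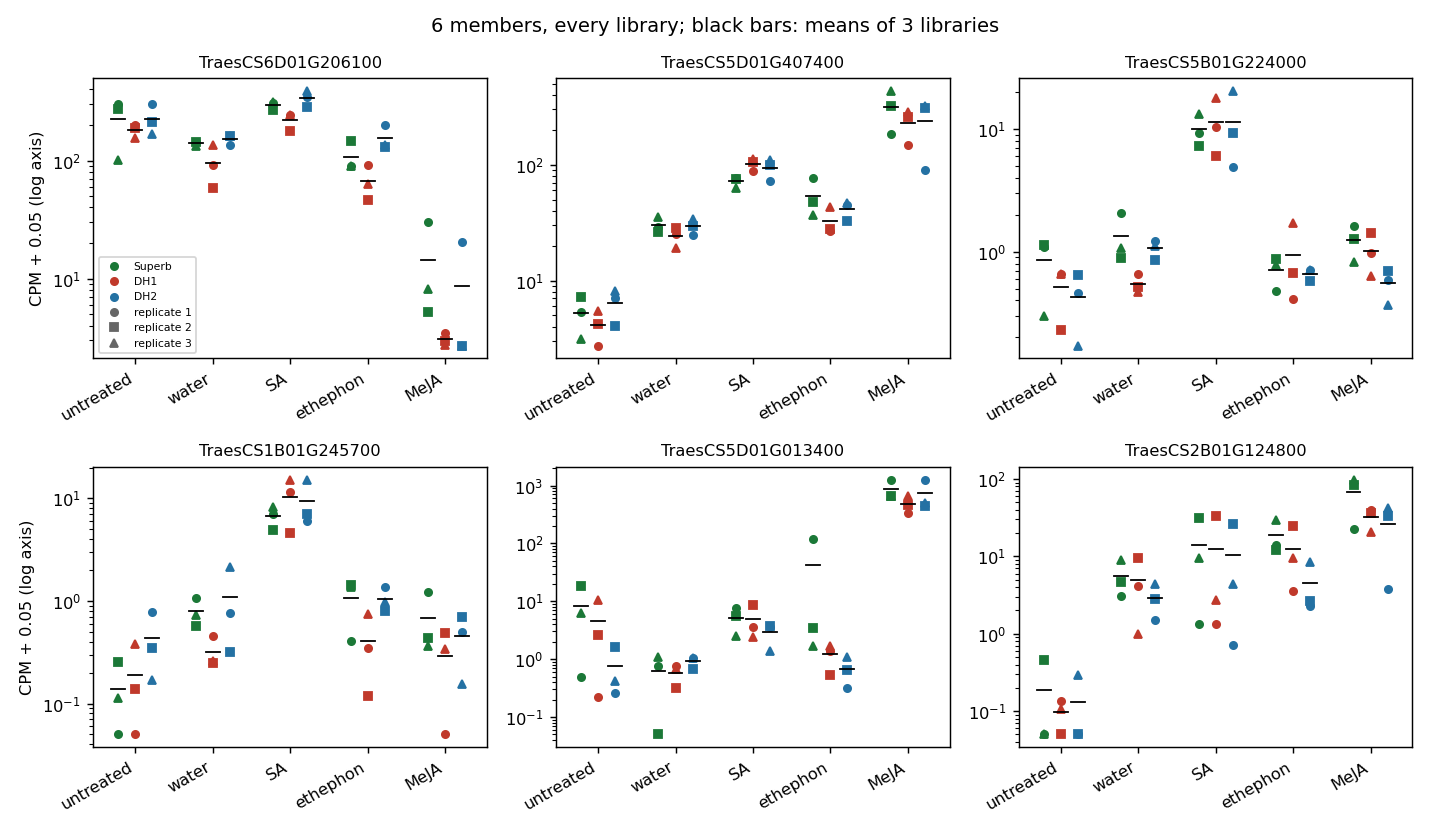
CPM with 0.05 added (vertical, log axis) of 6 members in all 45 libraries, by treatment (horizontal) and genotype (colour), with the replicate number as the symbol and a black bar at the mean of 3 libraries. TraesCS1B01G245700 and TraesCS5B01G224000 stand apart in the SA libraries, TraesCS6D01G206100 falls to 29.9 CPM or less after MeJA, and TraesCS5D01G013400 is at 337 CPM or more there.

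The libraries of a group did not weigh equally. All 3 SA libraries lay above all 3 water libraries for 80 members in Superb, 87 in DH1 and 72 in DH2. Among genes with an SA mean at the minimum, 4.33%, 6.4% and 4.67% did so in these genotypes. The groups did not overlap in all 3 genotypes for 62 members, in 2 genotypes for 21, in 1 genotype for 11 and in none for 4. For the 3 genotypes together no share over all genes is given. As the rule used the same libraries, nothing is read from any of these counts. SA replicate 3 was the highest of its group for 51 members in Superb, 46 in DH1 and 73 in DH2, and for 26 members in all genotypes at once. It was also the shallowest SA library in each genotype, with 7828299, 6685796 and 7632077 counts. The part of depth in this was not tested.

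TraesCS2B01G124800 on 2B passed the rule through SA replicate 2 in each genotype. It held 1.28, 31.1 and 9.58 CPM after SA in Superb, 1.30, 32.8 and 2.69 CPM in DH1 and 0.670, 25.8 and 4.32 CPM in DH2. After water it held 3.02, 4.60 and 8.94 CPM, 4.11, 9.50 and 0.945 CPM, and 1.44, 2.80 and 4.28 CPM. SA replicate 1 lay below all water libraries in Superb and DH2, and SA overlapped with water in all 3 genotypes. TraesCS1A01G232500 and TraesCS3D01G101800 had over 50% of their SA sum in replicate 3 in each genotype.

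To read the response to SA in libraries that chose no gene, the rule was applied in 2 genotypes and the third was then read. DH1 and DH2 together chose 236 genes, and 225 of them had a higher mean after SA than after water in Superb. Superb and DH2 chose 129 genes, of which 120 were higher after SA in DH1. Superb and DH1 chose 141 genes, of which 135 were higher after SA in DH2. The median log2 ratio of SA to water, with 0.05 CPM added to both means, was 0.94 in Superb, 1.81 in DH1 and 1.44 in DH2. The rule was met again by the 98 members, which are 41.5% of the genes chosen for Superb, 76% of those for DH1 and 69.5% of those for DH2. With the columns exchanged, 12, 16 and 16 genes were chosen, of which 0 met the rule in the genotype read and 4 met the exchanged rule.

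edgeR's quasi-likelihood test, with Benjamini-Hochberg adjusted p under 0.05 over 63091 genes, called 11 of the 230 chosen genes in the fit higher after SA in Superb. It called 32 of 122 in DH1 and 20 of 134 in DH2, and none lower. Over all genes tested, 0.0206% were called higher in Superb, 0.103% in DH1 and 0.0491% in DH2, which are 13, 65 and 31 genes. The log2 fold change of SA over water was negative for 4.35%, 4.1% and 3.73% of the chosen genes in Superb, DH1 and DH2. For all genes tested these shares were 47.99%, 51.2% and 52.37%.

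The number of calls rests on the fit and on single libraries. A fit over the 6 SA and water libraries of a genotype alone called 21 genes in Superb, 20 in DH1 and 20 in DH2, of which 8, 16 and 12 were also called over all libraries, so the higher count in DH1 was not seen there. Leaving out Superb water replicates 1, 2 and 3 gave 3, 1 and 0 calls in Superb, and leaving out its SA replicates 1 and 3 gave 6 and 2. In DH1, 16 calls were made without water replicate 3. In DH2, 9 were made without water replicate 1, the library that holds genes of another line, and 13 without SA replicate 3. SA libraries with the same replicate number deviated together across genotypes with a mean r of 0.215 over 9 pairs, from 0.044 to 0.393. For the water libraries the mean r was 0.164, from -0.028 to 0.292. Pairs of unlike number were not set beside these, so whether the genotypes are fully separate repeats is not known.

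**Figure D3:**
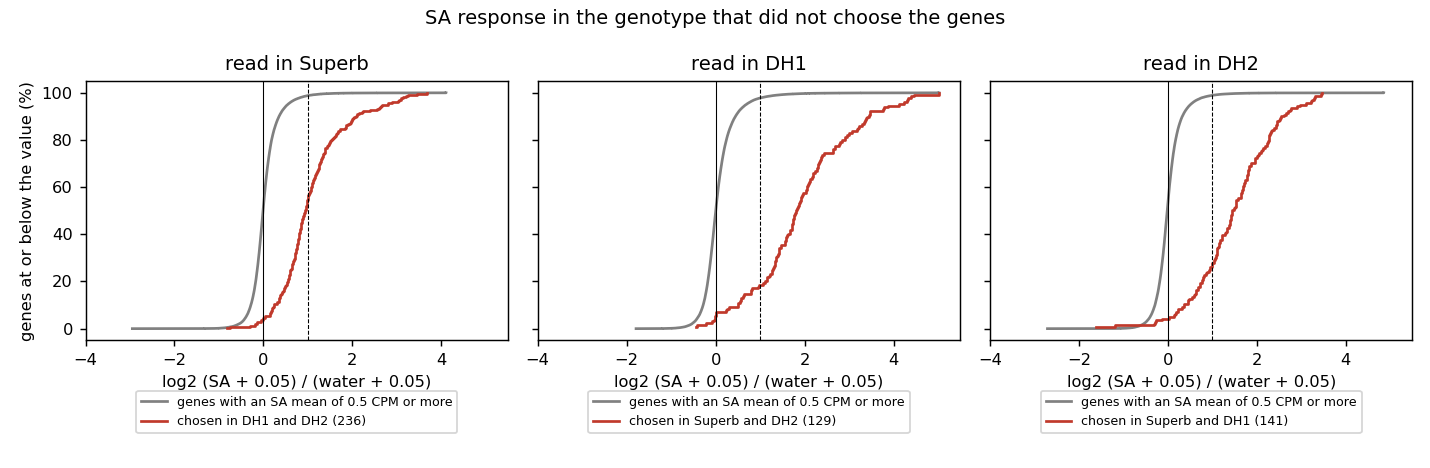
Share of genes (vertical, %) at or below a log2 ratio of SA to water means with 0.05 CPM added (horizontal), in 3 panels by the genotype read. Red lines are the genes chosen in the other 2 genotypes (236, 129 and 141), grey lines all genes with an SA mean of 0.5 CPM or more, and dashed lines mark 2 times. The red lines cross the middle at 0.94, 1.81 and 1.44, while the grey ones cross near 0.

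MeJA and ethephon libraries took no part in the rule, and by sign the members divided between them much as all genes tested did. Of the 96 members in the fit, 32 were higher after MeJA than after ethephon over the 3 genotypes, 26 were lower and 38 were not called (edgeR, adjusted p under 0.05). That is 33.3% called higher and 27.1% lower, against 23% and 20.7% over all genes tested. The log2 fold change was negative for 53.12% of the members and 52.45% of all genes tested. Members ran from -3.96 to 8.57 in log2 fold change, with a median of -0.16 against -0.023 over all genes tested. Of the calls, 31 of the higher and 19 of the lower ones were at least 2-fold. No share over all genes was computed at that limit, so nothing is read from these 2 counts. Without the 4 libraries that hold genes of another line, 32 were higher and 30 lower, and shares over all genes are not given for that fit.

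TraesCS5A01G007900 on 5A rose most among the members, with a log2 fold change of 8.57 (SE 0.48, edgeR adjusted p = 1.39e-16). After MeJA it stood at 845, 689 and 754 CPM in Superb, 53.9, 139 and 181 CPM in DH1 and 1099, 632 and 662 CPM in DH2. After ethephon it stood at 18.9, 3.04 and 2.20 CPM, 0.844, 0.0683 and 0.695 CPM, and 0.0655, 0.754 and 0.523 CPM. The groups did not overlap in any genotype, and the highest ethephon value was in the Superb library with DH1 genes. Its SA libraries, by comparison, held 1.76, 0.824 and 0.894 CPM in Superb, 0.1001, 2.59 and 0 CPM in DH1 and 1.34, 1.60 and 0.262 CPM in DH2, and overlapped with water in DH1 and DH2.

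TraesCS5D01G013400 on 5D had the next highest log2 fold change, 7.97 (SE 0.66, edgeR adjusted p = 2.59e-12). It reached 1252, 665 and 656 CPM after MeJA in Superb, 337, 455 and 672 CPM in DH1 and 1252, 448 and 503 CPM in DH2. After ethephon it was at 121, 3.37 and 1.61 CPM, 1.33, 0.478 and 1.67 CPM, and 0.262, 0.603 and 1.05 CPM. After SA it stood at 7.50, 5.62 and 2.43 CPM in Superb, 3.61, 8.54 and 2.39 CPM in DH1 and 3.5, 3.74 and 1.31 CPM in DH2. Its water means, which the rule used, were 0.579, 0.532 and 0.870 CPM in the same order. Without the 4 libraries its log2 fold change was 9.40.

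TraesCS6B01G299300 on 6B fell most, with a log2 fold change of -3.96 (SE 0.74, edgeR adjusted p = 3.13e-05). After ethephon it was at 0.431, 0.575 and 0.146 CPM in Superb, 0.483, 0.410 and 0.556 CPM in DH1 and 0.983, 0.452 and 0.654 CPM in DH2. After MeJA it was at 0.198, 0 and 0 CPM, 0, 0.0624 and 0 CPM, and 0 CPM in all 3 DH2 libraries, where 0 counts allow up to 0.0870 CPM over the group. TraesCS2D01G475300 on 2D fell by 3.91 on the log2 scale (SE 0.51, edgeR adjusted p = 1.9e-08). Its ethephon libraries held 0.646, 3.61 and 2.05 CPM in Superb, 1.45, 1.57 and 0.973 CPM in DH1 and 1.90, 1.06 and 1.83 CPM in DH2. Its MeJA libraries held 0.494, 0 and 0.155 CPM, 0.103, 0.0624 and 0 CPM, and 0, 0 and 0.212 CPM. For both genes the groups did not overlap in DH1 or DH2, and in Superb they overlapped for TraesCS6B01G299300 alone.

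**Figure D4:**
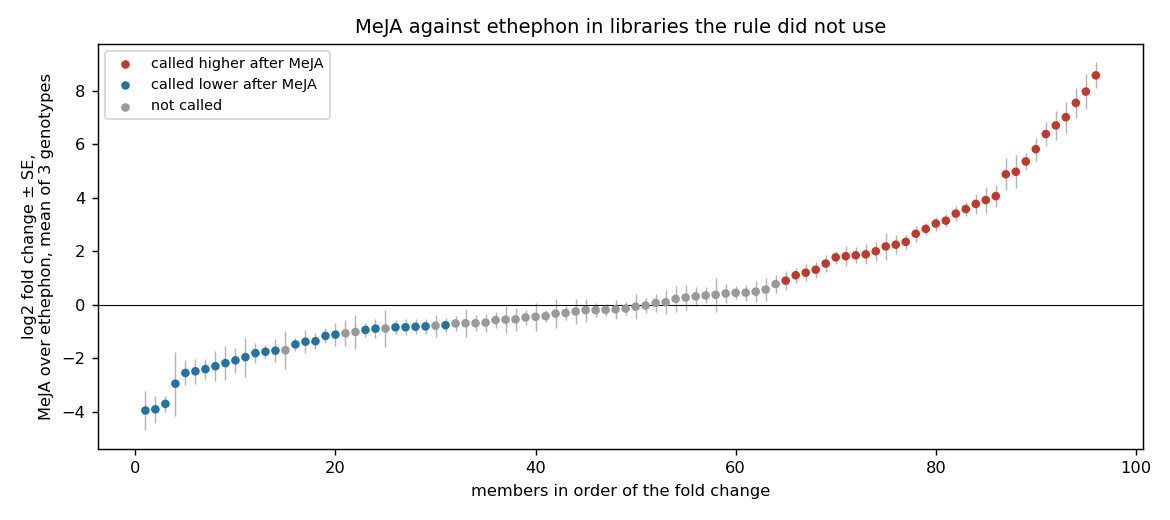
Log2 fold change of MeJA over ethephon as the mean of 3 genotypes, with its standard error (vertical), for the 96 members in the fit in order of the fold change (horizontal). Red points are the 32 called higher, blue the 26 called lower and grey the 38 not called. The highest values, at 8.57 and 7.97, lie farther from 0 than the lowest, at -3.96 and -3.91.

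Set beside SA itself, whose level the rule fixed as high, the MeJA mean was below the SA mean in all genotypes for 68 members and above it for 21. It was at least 10 times the SA mean in every genotype for 7 members and at most 0.1 times the SA mean for 14. The ethephon mean was below the SA mean in every genotype for 86 members and above it for 0. Put in place of SA in the rule, ethephon gave 2 genes, with 3 in the exchanged columns, and MeJA gave 3392, with 2164 exchanged. These counts share the water libraries with the SA rule. Members that were higher, lower or not called after MeJA had a median SA level of 4.32, 5.998 and 5.37 CPM and a median smallest ratio of 2.57, 2.36 and 3.02.

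**Figure D5:**
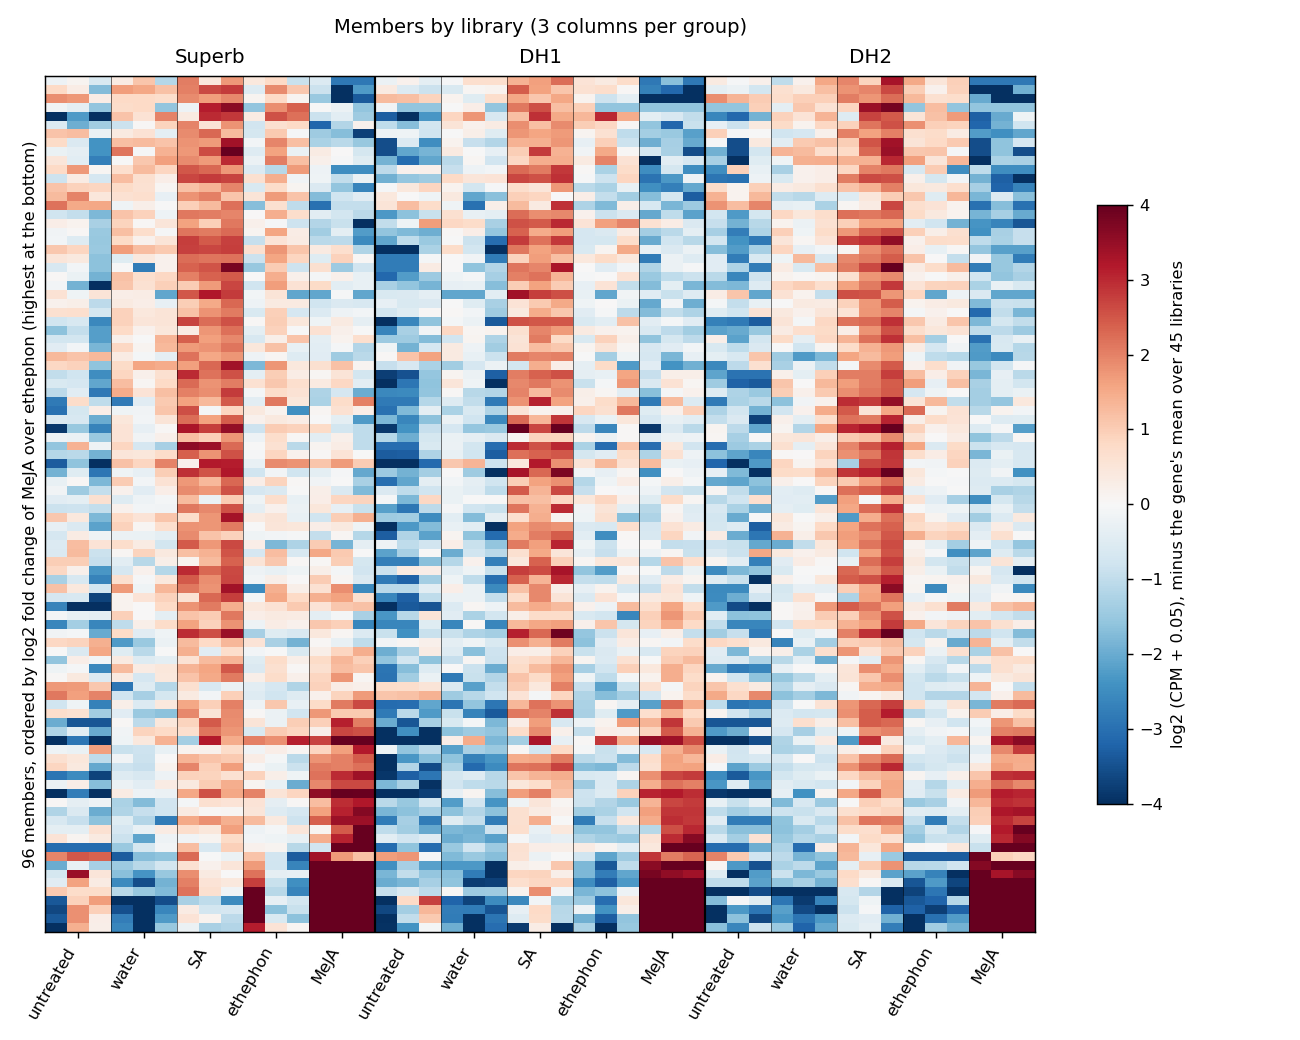
Log2 CPM with 0.05 added, minus the mean of the gene over 45 libraries (colour), for 96 members (rows, ordered by the log2 fold change of MeJA over ethephon with the highest at the bottom) in the libraries of each group (columns). The SA columns are red over most rows. The MeJA columns run from blue at the top to dark red at the bottom, where Superb ethephon replicate 1 is also red.

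More members rose than fell between untreated spikelets and ethephon at 8 h. After ethephon at 8 h, 44 of 96 members were higher than in untreated spikelets, 8 were lower and 44 were not called (edgeR, adjusted p under 0.05). Over all genes tested, 24.4% were called higher and 23.1% lower. Members had a median of 0.96 in log2 fold change, against -0.003 over all genes tested. This comparison shares its ethephon libraries with the one above, and the spray, the ethephon and the 8 h cannot be told apart in it. Without the 4 libraries, 43 members were higher and 10 lower, again with no shares over all genes given for that fit. In the water libraries, which the rule used, the mean was above the untreated mean in all genotypes for 54 members and below it for 22. No share over all genes is given for these counts, so nothing is read from them.

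TraesCS2B01G124800 had the highest log2 fold change of ethephon over untreated, 6.46 (SE 1.01, edgeR adjusted p = 9.15e-07). Untreated libraries held 0, 0.410 and 0 CPM in Superb, 0.0868, 0 and 0.0557 CPM in DH1 and 0, 0 and 0.241 CPM in DH2. Ethephon libraries held 13.9, 12.2 and 29.9 CPM, 3.498, 24.5 and 9.45 CPM, and 2.23, 2.56 and 8.51 CPM, all above every untreated library. The member whose SA level rested on SA replicate 2 was thus close to 0 before treatment and present in each sprayed group.

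TraesCS2B01G121900 on 2B rose by a log2 fold change of 5.22 (SE 0.57, edgeR adjusted p = 3.37e-10). It had 0.0876, 0.273 and 0 CPM untreated in Superb, 0, 0 and 0.111 CPM in DH1 and 0.104, 0 and 0 CPM in DH2. After ethephon it had 8.69, 3.12 and 3.95 CPM, 1.21, 1.503 and 4.17 CPM, and 1.57, 1.13 and 2.75 CPM, again with no overlap.

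TraesCS5A01G355700 on 5A fell by 3.91 on the log2 scale (SE 0.72, edgeR adjusted p = 1.59e-05). It went from 1.93, 2.80 and 2.57 CPM untreated to 1.08, 0.246 and 0 CPM after ethephon in Superb, from 1.56, 1.69 and 0.446 CPM to 0.241, 0.0683 and 0.139 CPM in DH1, and from 1.97, 0.995 and 0.241 CPM to 0 CPM in all 3 libraries of DH2. TraesCS6A01G369800 on 6A fell by 2.69 (SE 0.23, edgeR adjusted p = 3.55e-12). In Superb it went from 29.8, 21.7 and 27.0 CPM to 4.74, 3.94 and 4.83 CPM, in DH1 from 14.8, 15.5 and 18.1 CPM to 2.96, 2.05 and 2.64 CPM, and in DH2 from 19.9, 12.1 and 25.9 CPM to 3.93, 3.02 and 3.01 CPM. Neither gene had overlapping groups in any genotype. After SA, TraesCS6A01G369800 stood at 8.86, 6.29 and 13.4 CPM in Superb, 10.01, 6.48 and 12.6 CPM in DH1 and 6.18, 7.30 and 8.78 CPM in DH2, below every untreated library of its genotype.

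Between the genotypes, with all libraries kept, members were mostly lower in the lines than in Superb over the untreated, MeJA and ethephon libraries. In DH1, 87 of 96 members had a negative log2 fold change against Superb, which is 90.6%, and 50.3% of all genes tested did. The median was -0.73 for the members and -0.001 over all genes. The test called 1 member higher and 12 lower, while 1.35% of all genes were called higher and 1.34% lower. In DH2, 89 of 96 members were negative, 92.7% against 50.1% of all genes tested, with a median of -0.65. Here 0 members were called higher and 11 lower, while 1.97% of all genes were called higher and 2.25% lower. Both comparisons use the same Superb libraries, in which ethephon replicate 1 held 121 CPM of TraesCS5D01G013400 and 90.5 CPM of TraesCS7D01G053100. Without the 4 libraries, the counts of members lower were 10 in DH1 and 7 in DH2. Shares over all genes in that fit are not given here, and the shares of negative signs were not computed for it. Members that vary together in the same libraries are not separate readings.

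TraesCS6D01G122000 on 6D was lower in DH1 than in Superb by a log2 fold change of -2.98 (SE 0.46, edgeR adjusted p = 6.58e-06). Superb held 0.438, 8.74 and 1.06 CPM untreated, 3.59, 0.575 and 0.586 CPM after ethephon and 44.7, 13.2 and 23.3 CPM after MeJA. DH1 held 0.174, 0.356 and 0.223 CPM, 0.181, 0.0683 and 0.139 CPM, and 10.99, 9.29 and 8.22 CPM. DH1 lay below Superb in each of the 3 treatments, without overlap. TraesCS5A01G007900, with MeJA and ethephon values given above, was lower in DH1 by -2.73 (SE 0.46, edgeR adjusted p = 7.66e-05). Its untreated libraries held 0, 82 and 39 counts in Superb and 1, 4 and 35 counts in DH1, which overlapped. TraesCS6B01G398200 on 6B was the member called higher in DH1, at 1.35 (SE 0.33, edgeR adjusted p = 0.0111). It held 0.781, 1.42 and 5.24 CPM untreated, 2.35, 5.12 and 6.39 CPM after ethephon and 2.46, 2.00 and 1.06 CPM after MeJA in DH1. In Superb it held 1.93, 1.77 and 0.626 CPM, 1.87, 1.56 and 0.878 CPM, and 0.691, 0.847 and 0 CPM. The untreated groups overlapped, and without DH1 untreated replicate 3 the gene was not called, with an adjusted p of 0.15 in edgeR and 0.00224 to 0.15 over 24 alternatives.

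TraesCS7D01G053100 on 7D was lower in DH2 than in Superb by a log2 fold change of -3.98 (SE 0.60, edgeR adjusted p = 9.13e-06). Superb held 9.99, 8.12 and 8.01 CPM untreated, where DH2 held 0, 0.0995 and 0.362 CPM. After ethephon the values were 90.5, 2.22 and 0.732 CPM in Superb and 0.328, 0.603 and 0.262 CPM in DH2. After MeJA the groups overlapped, at 331, 336 and 269 CPM in Superb and 384, 237 and 197 CPM in DH2. TraesCS5B01G006500 on 5B was lower in DH2 by -3.61 (SE 0.69, edgeR adjusted p = 0.000293). It held 0.0876, 6.07 and 3.25 CPM untreated, 38.8, 0.493 and 0.878 CPM after ethephon and 265, 137 and 221 CPM after MeJA in Superb. DH2 held 0, 0.299 and 0.181 CPM, 0.131, 0.0754 and 0.131 CPM, and 453, 126 and 193 CPM. Without the 4 libraries it was at -2.15 and not called, with an adjusted p of 0.125 in edgeR and 1.31e-05 to 0.125 over 24 alternatives.

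By their identifiers, 28 members lay in the A subgenome, 34 in B and 35 in D, with 1 whose identifier names no chromosome. These are 28.6%, 34.7% and 35.7% of the members, and 33.0%, 32.6% and 33.4% of the genes with an SA mean at the minimum in every genotype lay in A, B and D. The most members on a chromosome were 9 on 2B, with 8 each on 2D and 5D. These chromosomes held 3093, 3207 and 3082 of the genes at the SA minimum, while 2A, with 3106, held 4 members. Along the chromosomes, 16 members formed 8 pairs with no listed gene between them, on 1A, 1B, 2A, 2B, 3A, 5B, 5D and 6B. A chance level was not computed for the pairs, which are a description. TraesCS5B01G224000 with TraesCS5B01G224100 and TraesCS6B01G398100 with TraesCS6B01G398200 are 2 of these pairs.

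Members at like places of related chromosomes were also counted. Members of different subgenomes within 2% of the gene order of each other were linked, and linked members were joined into sets, so a set can be wider than 2%. In this way 35 members formed 7 sets that span all 3 subgenomes, and 9 further sets spanned 2 subgenomes. No chance level was computed for these counts, which are a description. A set can also join unlike members: TraesCS6A01G120000 was lower after MeJA than after ethephon, and TraesCS6D01G122000 of the same set was higher. TraesCS2A01G489500, TraesCS2B01G517400 and TraesCS2D01G489700 lay at 82.4%, 82.1% and 81.4% of the way along 2A, 2B and 2D. TraesCS2B01G517400 held 93.5, 67.8 and 84.9 CPM after SA and 27.1, 20.2 and 20.5 CPM after water in Superb, and TraesCS2A01G489500 held 51.2, 29.3 and 38.2 CPM and 11.9, 7.52 and 10.2 CPM. No annotation of homoeologs was used, and reads may be shared among copies of like sequence, which makes a single copy's count less certain than a set's.

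Some members had few or no counts in some groups. TraesCS7D01G491200 on 7D had 0 counts in the 3 DH1 water libraries, which allow up to 0.0866 CPM. Its mean in the DH1 SA libraries was 0.627 CPM, or 7.24 times that limit. The rule used these values, so the fold is a description, and the SA mean has counting error of its own. It had 0 counts after MeJA and after ethephon in DH1 too. In Superb, however, untreated replicate 1 held 9 counts, or 0.788 CPM, above its SA libraries at 0.638, 0.374 and 0.766 CPM. It and TraesCS3A01G421100 were the members left out of the fit by the filter on low counts. TraesCS3A01G421100 had 0 counts in the untreated libraries of every genotype. Limits of 0 counts are 3 counts over the summed libraries of a group and cover counting error only.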

How the data were processed

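The authors deposited 1 table of raw read counts per gene, with a column for each of the 45 libraries. Its values are whole numbers that sum to a different total in each library, and no scaling is recorded. The submitters' processing notes name STAR 2.5.3a and DESeq2 without their roles. Not given in the sources used here are the counting program, the strand setting and what was done with reads of several places. All 110790 rows carry identifiers in the style of IWGSC RefSeq v1.0. None matched the reference table used here, of another assembly, so no names, sequences or gene lists were used, and 0 identifiers were paired.

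Groups were read from the genotype and treatment labels. CPM were computed from column totals. Members and lists were chosen with earlier results of these data known. Counts were tested in R 4.3.3 with edgeR 4.0.16: filterByExpr over the 15 groups kept 63091 genes with 99.73% of counts, scaling was by TMM, and all 45 libraries entered 1 quasi-likelihood fit with group means (glmQLFit, legacy = FALSE, 30 residual degrees of freedom). Benjamini-Hochberg adjusted p under 0.05 was a call. Standard errors are the absolute log2 fold change over the square root of F. The steps were tested on simulated data. DESeq2 1.42.0, RLE scaling, no filter, a replicate block and left-out libraries were alternatives. The 45 replicate pairs differed by more than sampling noise (chi-square per degree of freedom 2.23 to 19.1), so none was taken as a duplicate. With 6446374 to 17940396 counts per library, members near the minimum level rest on few counts, which limits their precision.

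Named genes have the highest SA level, the highest and lowest smallest ratio, a place next to another member, or the 2 highest and 2 lowest log2 fold changes among members called in a test. TraesCS1A01G232500, TraesCS3D01G101800, TraesCS7D01G491200, TraesCS3A01G421100, the set on group 2 and the genes near the minimum level were named after their values were seen.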

Additional observations from a re-analysis of the deposited data

Results flagged for a closer look

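TraesCS6B01G398100 on 6B went opposite ways in the genotypes between MeJA and ethephon, with every library of a genotype on the same side. In DH1 it held 3.80, 6.74 and 4.06 CPM after MeJA and 1.27, 1.16 and 0.278 CPM after ethephon, a log2 ratio of the means, with 0.05 CPM added, of 2.37. In Superb it held 1.48, 1.85 and 0.776 CPM against 2.37, 2.55 and 2.49 CPM, a log2 ratio of -0.83. In DH2 it held 1.44, 1.15 and 0.954 CPM against 2.23, 1.81 and 1.70 CPM, a log2 ratio of -0.67. The difference between genotypes was not tested. The ethephon libraries of Superb and DH1 include replicate 1 of each, which hold genes of another line.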

How the results depend on the processing

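The 98 members became 307 at a ratio of 1.5, 36 at a ratio of 3 and 44 with 0.5 CPM added to the water mean. With a library or a replicate number left out they ranged from 79 to 154, the highest without replicate 1 in all groups (83 members shared), where the exchanged columns gave 2 genes. Without replicate 2 in all groups the exchanged columns gave 15 genes and the rule 80. Medians in place of means gave 81 members, of which 65 were shared. Genes called by SA in the genotype read ranged from 0 to 9 in Superb, 16 to 30 in DH1 and 9 to 24 in DH2 with a library left out. A fit over the 6 SA and water libraries of that genotype alone called 21, 20 and 20. Without the 4 libraries that hold genes of another line, an alternative chosen after seeing the data, 10 genes were called in DH2.

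Members called between DH2 and Superb were 7 without ethephon library 1 of Superb and DH1, and 7 without the 4 libraries, and ranged from 7 to 14 with a library left out. The ranges were 51 to 61 between MeJA and ethephon, 50 to 55 between ethephon and untreated, and 9 to 17 between DH1 and Superb. TraesCS5B01G006500 lost its call between DH2 and Superb in 3 of 24 alternatives and TraesCS6B01G398200 its call between DH1 and Superb in 1, and no named fold change changed sign. The causes were not tested. In none of the tests did every same-numbered pair correlate over 0.1 (r from -0.19 to 0.67), so the numbers were not taken to pair samples, although all 3 pairs did so between DH2 and Superb in untreated (0.279 to 0.337) and MeJA libraries (0.297 to 0.670). With a replicate block, 60, 56, 14 and 12 members were called in these 4 tests (MeJA, ethephon, DH1, DH2) and 12, 37 and 20 chosen genes by SA in Superb, DH1 and DH2. Low counts limit members near 0.5 CPM, and reads shared between copies were not resolved.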
